A study of Homo sapiens with 24 samples.

Results

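A set of 48 genes was chosen by name because they encode NF-kappaB proteins, their regulators and the cytokines, chemokines, receptors and other secreted proteins of the inflammatory and senescence-associated secretome. They were read in mRNA sequencing of human cells with an extra chromosome and of the lines these were made from. Earlier results of these data were known when the set and the further lists were chosen. Their shares beside those of all genes are therefore descriptions and not independent contrasts. Of the 48 genes, 43 were listed in 1 or more of the 4 deposited tables. All 43 had a pooled mean of at least 10 normalized counts in 1 or more of them. Of the 16742 genes listed in any table, 15168 reached that level. The 4 tables listed between 14292 and 15610 genes each. The genes of the set that reached it, called kept here, numbered 33 in each HCT116 table and 39 in each RPE1 table. Of the set, 29 were kept in every table. Of all genes, 13887 and 13869 were kept in the HCT116 tables, against 13278 and 13101 in the RPE1 tables. The counts over all genes thus ran the other way from those of the set. CXCL12, CCL20, CX3CL1, IL1RL1 and VCAM1 were listed in no table.

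The series held 24 libraries from 8 lines, with 3 libraries per line. HCT116 is a near-diploid colorectal carcinoma line and RPE1 is a retinal pigment epithelial line immortalised with telomerase (hTERT). The parental lines were HCT116, HCT116*, RPE1 and RPE1*, where the asterisk marks a line that carries histone H2B fused to GFP. The other 4 carried added chromosomes. HCT116 5/4 had 4 copies of chromosome 5 and was set beside HCT116. HCT116* 8/3 c7 was a single clone with 3 copies of chromosome 8 and was set beside HCT116*. RPE1 5/3 12/3 had 3 copies of chromosome 5 and 3 of chromosome 12, the latter gained spontaneously, and was set beside RPE1. RPE1* 21/3 had 3 copies of chromosome 21 and was set beside RPE1*. The labels give no drug or other treatment for any group. HCT116 5/4 came from another laboratory than the stock in which HCT116* was made. The sources differ on whether HCT116 came from that laboratory or from a cell repository. The HCT116 pools thus also differed in the source of the cells, at least for HCT116 5/4. The value used per gene was the authors' mean over all 6 libraries of a table, which pools an aneuploid line with its parental line. Such a pooled mean has no spread between replicates, and it does not separate the aneuploid from the parental line. The comparisons possible were therefore between the HCT116-derived and RPE1-derived pools and between the 2 pools of an origin, none with a test, and the change from each parental line to its aneuploid line was not analysed here.

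NF-kappaB is a dimer of Rel-family proteins that is held in the cytoplasm by IkappaB inhibitors. Signals from cytokine, Toll-like and TNF receptors activate the IkappaB kinase, the inhibitor is degraded, and the dimer enters the nucleus and binds kappaB motifs in the promoters of cytokine, chemokine, adhesion and survival genes. Several of its targets, such as the inhibitor IkappaB-alpha and the deubiquitinase A20, act back on the pathway. Senescent cells secrete many of the same cytokines together with proteases and IGF binding proteins, and such a secretory response has been studied in cells with an abnormal chromosome number.

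Markers of the labelled origins were read before the genes of interest. Of 15 colorectal epithelial markers, 12 were kept in each HCT116 table and 2 in each RPE1 table, and their summed level was 6163 to 6554 ppm in the HCT116 tables and 1396 to 1596 ppm in the RPE1 tables, where ppm is the share of the table's summed means in parts per 1000000. KRT8 (853 and 885 ppm) and KRT18 (542 and 711 ppm) gave nearly all of the RPE1 sums. VIL1 and CDX1 were listed in no table. Of 10 retinal pigment epithelium markers, 3 were kept in each HCT116 table and 6 and 4 in the RPE1 tables, with sums of 20.2 to 24.2 and 85.4 to 98.4 ppm. These markers were divided. MITF (18.5-fold) and BEST1 (8.93-fold) were higher in the RPE1 tables, OTX2 (means of 715 and 419) and RLBP1 (32.4 and 4.77) were listed in the RPE1 tables alone, PMEL was 7.53-fold higher in the HCT116 tables, and CRX was below 10 in all tables. TYR, TYRP1 and TTR were listed in no table, and RPE65 had a mean of 287 and 194 in the HCT116 tables against 10.4 and 4.58 in the RPE1 tables. Of 9 fibroblast-like markers, 5 were kept in each HCT116 table and 8 in each RPE1 table. They summed to 89.6 to 141 ppm in the HCT116 tables and 24657 to 26779 ppm in the RPE1 tables. VIM (7622 and 5828 ppm) and FN1 (16004.6 and 19764.5 ppm) gave most of the RPE1 sums. The 6 listed in all 4 tables were all called higher in the RPE1 tables. COL1A2 was below 10 in both RPE1 tables (4.39 and 8.78) and in no HCT116 table. Of 7 blood cell markers, 6 of white cells and the red cell globin gene HBB, CD3E and HBB were in no table, PTPRC had a mean of 6.85 and 10.9 in the RPE1 tables and was in no HCT116 table, and the list summed to at most 5.87 ppm in the HCT116 tables and 65.3 in the RPE1 tables. CD68, a lysosomal protein gene that many cell types transcribe, gave most of the latter sum, with means of 1485 and 1119. The part of these markers in the results was not tested.

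The kappaB motif was searched, on both strands, in the 300 bases around the gene starts in RefSeq (GRCh38.p14), 250 before and 50 after each start. It is named here without its letters because the 10-letter consensus needs ambiguous bases, and since it is nearly symmetric one stretch can match on both strands or at 2 overlapping positions. Promoters were given for 38 of the 48 genes, and 17 of these genes had a match. By promoter, 19 of 54 (35.2%) held a match, and the share among all 35116 RefSeq promoters was 11.3%. The set was chosen by role in NF-kappaB signalling and the secretome, so these shares are not an independent comparison. A match is a description of the letters and not a bound site. Among the subunit genes, NFKB1, NFKB2 and REL held a match, RELA held none and RELB had no promoter entry. Among the genes listed only in the RPE1 tables, as described further on, IL6 and IL32 held a match, IL1B, IL7R, SERPINB2 and IGFBP4 held none in this window, and CCL2 had no entry. The promoters of IL6, of the neighbouring chemokine genes CXCL1, CXCL2 and CXCL3, and of NFKB1, NFKBIA, TNFAIP3 and BIRC3 are shown because they belong to genes that the text returns to. Capitals mark 1 match per promoter, the first along the gene, with 10 bases on each side, 5′ to 3′ on the strand of the gene.
IL6 (chr7:22727117-22727146, plus strand): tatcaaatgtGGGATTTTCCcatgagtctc
CXCL1 (chr4:73869304-73869333, plus strand): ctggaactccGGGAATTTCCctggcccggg
CXCL2 (chr4:74099254-74099283, minus strand): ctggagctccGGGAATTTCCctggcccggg
CXCL3 (chr4:74038749-74038778, minus strand): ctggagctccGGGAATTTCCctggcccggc
NFKB1 (chr4:102501300-102501329, plus strand): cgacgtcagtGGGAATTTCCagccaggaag
NFKBIA (chr14:35404811-35404840, minus strand): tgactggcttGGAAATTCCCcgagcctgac
TNFAIP3 (chr6:137867182-137867211, plus strand): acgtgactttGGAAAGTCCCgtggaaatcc
BIRC3 (chr11:102317275-102317304, plus strand): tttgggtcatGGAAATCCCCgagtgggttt

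The 3 CXCL promoters held the same 10 letters at 78 or 79 bases before the start. Their levels were between 0.211 and 0.931 ppm per kb of exon in the 4 tables, which was above 9.97% to 21.0% of the genes with a length. The files hold no measure of binding at these letters.

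Between origins, 7 of the 48 genes were higher in the RPE1 tables and 7 more were listed in those tables alone, 1 was higher and 1 listed alone in the HCT116 tables, and 24 differed by under 2-fold or overlapped. The 24 were the 5 subunit genes, 7 inhibitors and feedback genes, and 12 secretome or receptor genes: LIF, IL15, IL8, CXCL1, CXCL2, CXCL3, CCL5, OSMR, LIFR, ICAM1, PLAUR and PTGS2. Levels were set across tables in ppm, the pooled mean divided by the table's summed means (18889290 to 23011803), because the tables had been normalized separately. A gene was called higher in an origin where it was listed in all 4 tables, had a mean of at least 10 in 1 or more, and both tables of that origin were at least 2-fold above both tables of the other. Of 32 genes that could be compared in this way, 7 (21.9%) were higher in the RPE1 tables: NFKBIZ, CSF1, IL6ST, PLAU, IGFBP3, IGFBP5 and IGFBP6. Over all 12963 genes compared, 8.41% were higher in the RPE1 tables. TNFAIP2 was the 1 gene (3.12%) higher in the HCT116 tables, against 17.7% of all genes. A further 7 of 43 genes (16.3%) were at 10 or more in both RPE1 tables and listed in no HCT116 table, namely IL6, IL1B, IL32, CCL2, IL7R, SERPINB2 and IGFBP4, against 3.46% of all genes. IL18 alone (2.33%) had this pattern for the HCT116 tables, against 5.38% of all genes. A gene that is not listed may be low or may be absent from a table for another reason, so no fold was computed against an unlisted value. MIF, a cytokine gene that most cell types transcribe, was among the genes in no table.

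The median log2 ratio of the 32 genes, RPE1 over HCT116, was 0.07 and that of all genes was −0.37, so that the ppm scale left the bulk of genes lower in the RPE1 tables. With the tables scaled by the median of ratios the all-gene median was −0.03, and 11.7% of all genes were higher in the RPE1 tables and 11.6% in the HCT116 tables, in place of 8.41% and 17.7%. Of the 32 genes, 19 lay above the all-gene median and 13 below it. RELA and LIFR changed sign between the scalings, from −0.00 to 0.34 and from −0.32 to 0.03, and neither was called. Origin, tumour or normal source, donor and culture history differ together between these lines and cannot be told apart. In these bulk samples, fewer cells that transcribe a gene and less RNA of it per cell cannot be told apart either.

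**Figure D1:**
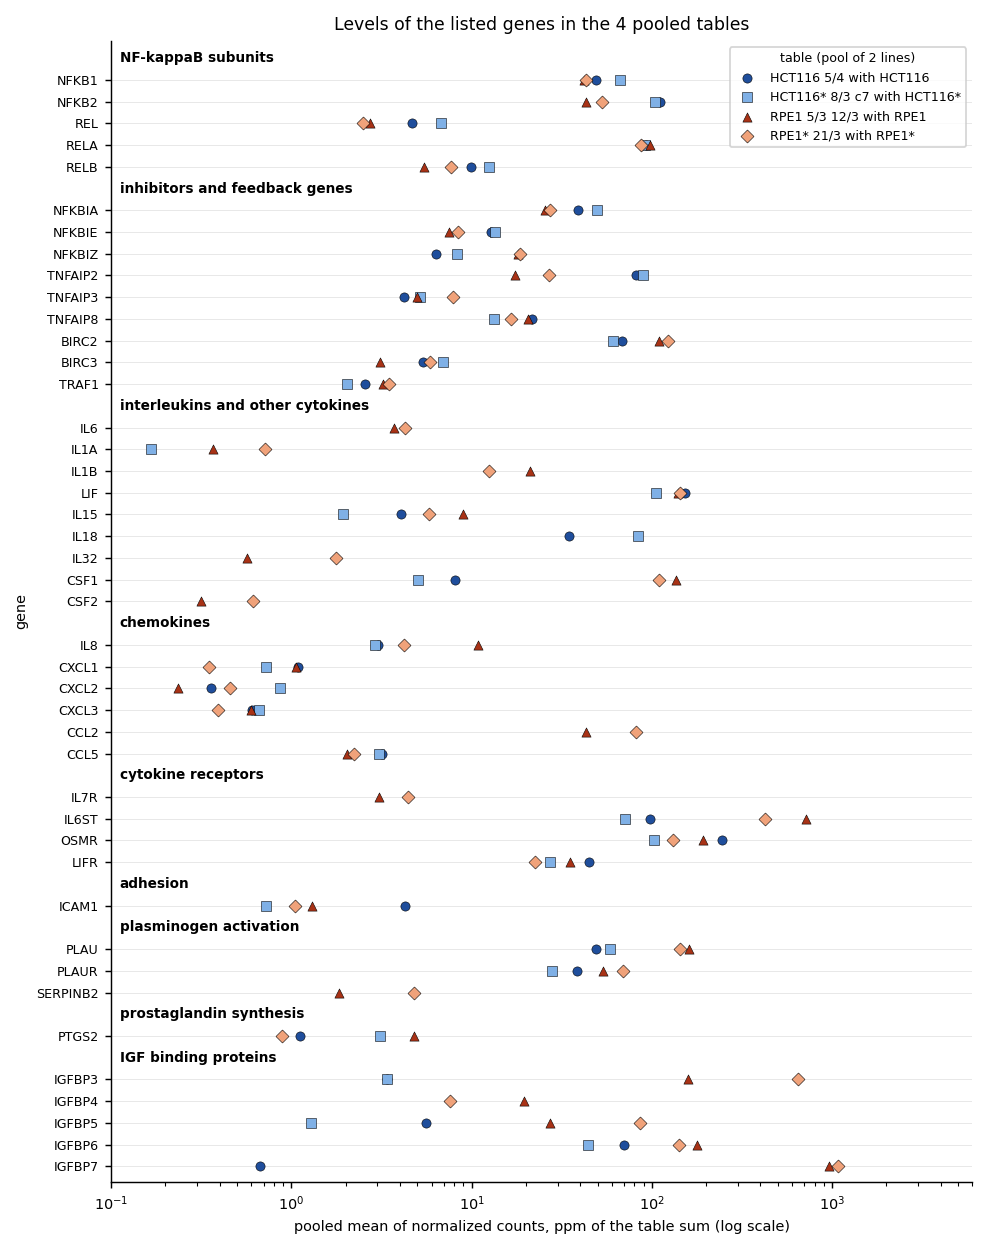
Each point is the authors' pooled mean for 1 gene in 1 of the 4 tables, in ppm of the table's summed means on a log axis, with genes grouped by role and genes in no table left out. Points are to be compared within a gene, since the values are not divided by transcript length; IGFBP3, IGFBP7, CSF1 and IL6ST have both RPE1 symbols far to the right, while the 4 symbols of RELA nearly coincide.

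The 5 subunit genes were listed in all tables, and none was called for either origin. In what follows, pairs of means are for the pools with HCT116 5/4 and with HCT116* 8/3 c7, then for those with RPE1 5/3 12/3 and with RPE1* 21/3. RELA, which encodes the p65 activating subunit, had means of 1794 and 1845 in the HCT116 pools and 2245 and 1649 in the RPE1 pools. On the ppm scale these lay between 87.3 and 97.6, with a ratio between origins of 0.997. NFKB1, the precursor of p50, had means of 949 and 1327 against 966 and 816. NFKB2, the precursor of p52 in the non-canonical pathway, had means of 2131 and 2099 against 995 and 993. In ppm, NFKB2 was 2.26-fold higher in the HCT116 tables, but its nearest pair of tables differed by 1.99-fold, just under the limit. REL (89.5 and 135 against 63.2 and 46.9) and RELB (190.1 and 249.7 against 126 and 145), the c-Rel and RelB subunits, lay on the same side, with nearest pairs 1.69-fold and 1.28-fold apart. On this scale all 5 subunits had a ratio below 1, although that of RELA was within 1.01-fold of equality. Of all 12963 genes compared, only 33.9% had a ratio above 1. Against the all-gene median, 4 of 5 subunits lay below, with NFKB1 at a log2 distance of only −0.05. Per kilobase of exon, NFKB2 led the subunits in the HCT116 tables, at 29.2 and 27.7 ppm per kb against 23.3 and 23.0 for RELA. In the RPE1 tables RELA led, at 24.4 and 21.8, with NFKB2 at 11.4 and 13.9.

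Among the 9 inhibitors and feedback genes, IkappaB members divided. NFKBIA, the gene of IkappaB-alpha and a direct NF-kappaB target, had means of 752 and 998 in the HCT116 pools and 590.5 and 511.7 in the RPE1 pools. NFKBIE, which encodes IkappaB-epsilon, had means of 248 and 269 against 172 and 159. Both were under 2-fold between origins, with ratios of 1.67 and 1.66 in favour of HCT116. NFKBIZ, the nuclear IkappaB-zeta that works with p50 at a subset of cytokine genes, went the other way, with means of 122 and 167 against 416 and 349. In ppm it was 2.52-fold higher in the RPE1 tables, and its nearest pair of tables differed by 2.17-fold.

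TNFAIP2, a TNF-induced gene linked to membrane protrusions, was the single gene of the set called higher in the HCT116 tables. Its means were 1563 and 1800 in the HCT116 pools and 400.0 and 504 in the RPE1 pools, which in ppm was a 3.96-fold difference. The 2 groups of tables did not overlap, and the nearest pair was 3.04-fold apart. TNFAIP3, the gene of A20, had means of 81.2 and 104 against 115 and 149, and its ranges overlapped in ppm. TNFAIP8, an apoptosis regulator on chromosome 5, had means of 415 and 266 against 475 and 312, and also overlapped.

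The inhibitor of apoptosis genes BIRC2 and BIRC3 lie side by side on chromosome 11 and encode ubiquitin ligases of the TNF receptor complex. BIRC2 had means of 1313 and 1224 in the HCT116 pools and 2531 and 2325 in the RPE1 pools. In ppm it was 1.8-fold higher in the RPE1 tables with no overlap, under the limit on this scale and above it with the median of ratios. BIRC3, the member of the pair that NF-kappaB induces, had means of 104 and 139 against 71.4 and 112, which overlapped. TRAF1, an adaptor of TNF receptors, had means between 40.9 and 74.1, and the RPE1 tables were above the HCT116 tables by 1.26-fold at the nearest pair. Per kilobase, BIRC2 was well above BIRC3 in every table (14.4 to 29.1 against 0.435 to 0.973 ppm per kb).

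Several cytokine genes were listed for 1 origin and not for the other. IL6, the inflammatory cytokine that signals through gp130, had means of 85.3 and 80.8 in the RPE1 pools and was in no HCT116 table. IL1B, an inflammasome-processed cytokine upstream of NF-kappaB, had means of 486 and 237 in the RPE1 pools and was in no HCT116 table. IL32, an inducible cytokine, had means of 13.0 and 33.3 in the RPE1 pools and was in no HCT116 table. These 3 were thus above the limit of 10 in both RPE1 tables. IL18, another inflammasome product, showed the opposite listing, with means of 666 and 1682 in the HCT116 pools and none in the RPE1 tables. IL1A, the second IL-1 ligand, was listed in 3 tables at 3.36 (HCT116* 8/3 c7), 8.41 and 13.5. CSF2, the gene of GM-CSF, was listed in the RPE1 tables alone, at 7.27 and 11.6. Both IL1A and CSF2 passed the limit only in the RPE1* 21/3 table.

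CSF1, the macrophage colony-stimulating factor gene, was listed in all tables and had the second highest ratio of the 32 genes. Its means were 155 and 101 in the HCT116 pools and 3112 and 2057 in the RPE1 pools. In ppm the RPE1 tables were 19.1-fold higher, with the nearest pair 13.5-fold apart. LIF, an IL-6 family cytokine that uses gp130 with the LIF receptor, was by contrast abundant in both origins, with means of 2951 and 2106 against 3202 and 2714. Its ranges overlapped (105 to 153 against 139 to 144 ppm), and per kilobase it was the highest of the 9 interleukins and other cytokines, chemokines not counted, in 3 of the 4 tables, at 35.9 to 39.6 ppm per kb. The exception was the HCT116* 8/3 c7 table, where IL18 reached 73.4 ppm per kb and LIF 27.1. IL15, a lymphocyte growth factor gene, had means of 78.3 and 38.8 against 207 and 109, with no overlap but a nearest pair only 1.42-fold apart.

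Among the chemokine genes, CCL2 stood above all others per kilobase, where the rest reached at most 5.51 ppm per kb. CCL2, the monocyte chemoattractant MCP-1, had means of 986 and 1544 in the RPE1 pools and was in no HCT116 table. At 37.6 and 71.8 ppm per kb it lay above 90.3% and 95.4% of the genes of those tables with a length. IL8 (CXCL8), the neutrophil chemoattractant, had means of 57.9 and 58.4 in the HCT116 pools and 249.6 and 79.5 in the RPE1 pools. The HCT116 pools were nearly equal, while the RPE1 pools differed by 2.58-fold, so the nearest pair of tables was 1.4-fold apart and IL8 was not called. CCL5 (RANTES), a T cell chemoattractant, had means of 61.1 and 61.4 against 46.6 and 42.1.

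CXCL1, CXCL2 and CXCL3, the GRO chemokines that share the receptor of IL8, had means between 5.42 and 24.5 in the 4 tables, and their ranges overlapped between origins, except that those of CXCL3 were separated by 1.02-fold. A mean of 10 over 6 libraries carries a counting error of about 12.9%, and a mean of 100 about 4.08%, if the size factors were near 1, so that the lowest values are the least precise. The 3 genes lie with IL8 in a cluster on chromosome 4 (chr4:74735110-74737025 for CXCL1 in GRCh37) and are close paralogues. No stretch of 100 bases, the read length, was shared between their mRNAs, but 5.33% of 50-base windows of CXCL1, 10.1% of CXCL2 and 5.26% of CXCL3 were found in another of the 3. Reads could thus be told apart if aligned without mismatches, and the split between the 3 remains less certain than for single-copy genes. The remaining chemokines CXCL12, CCL20 and CX3CL1 were in no table, although the CCL20 promoter held a kappaB match.

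Receptors of the IL-6 family were transcribed in both origins. IL6ST, which encodes the shared signalling chain gp130, had means of 1885 and 1421 in the HCT116 pools and 16470 and 8019 in the RPE1 pools. In ppm the RPE1 tables were 6.62-fold higher with a nearest pair of 4.34-fold. OSMR, the oncostatin M receptor chain, had means of 4699 and 2054 against 4410 and 2478, and LIFR, the LIF receptor chain, had 863 and 546 against 808 and 423. Both overlapped between origins. Per kilobase, OSMR led the receptors in the HCT116 tables (37.5 and 15.7 ppm per kb) and IL6ST in the RPE1 tables (77.7 and 46.1). IL7R, the IL-7 receptor alpha chain, had means of 70.7 and 84.2 in the RPE1 pools and was in no HCT116 table, and IL1RL1, the IL-33 receptor, was in no table. IL6R, the ligand-binding IL-6 receptor chain and not one of the 48 genes, had means of 124 and 277 against 83.1 and 72.5. Its values were higher in the HCT116 tables, opposite to IL6ST. The nearest pair of tables differed by 1.67-fold in ppm, under the limit, so IL6R was not called.

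The adhesion gene ICAM1, a ligand of leukocyte integrins, had means of 82.5 and 14.5 in the HCT116 pools and 29.8 and 19.8 in the RPE1 pools, and the highest value stood in the pool with HCT116 5/4. In the urokinase system, PLAU, the urokinase protease gene, had means of 943 and 1175 against 3699 and 2705. It was 2.83-fold higher in ppm in the RPE1 tables, with a nearest pair of 2.44-fold. Its receptor PLAUR had means of 736 and 560.5 against 1228 and 1312, also without overlap, but with a nearest pair of 1.4-fold. SERPINB2, the inhibitor PAI-2, had means of 42.3 and 90.3 in the RPE1 pools and was in no HCT116 table. PTGS2, the inducible cyclooxygenase COX-2, had means of 21.4 and 62.0 against 111 and 16.7, and its RPE1 values lay on both sides of the HCT116 values.

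IGF binding proteins had the highest median log2 ratio of the groups, 4.17 over 3 genes. IGFBP3, the main carrier of circulating IGF, had means of 65.5 and 68.4 in the HCT116 pools and 3639 and 12263 in the RPE1 pools. The RPE1 tables were 94.1-fold higher in ppm, the largest ratio of the 32 genes, with a nearest pair of 46.3-fold. IGFBP5 had means of 108 and 25.7 against 625 and 1618 and was 18.0-fold higher in the RPE1 tables. Its pools differed by more than 3-fold within each origin, and its nearest pair of tables was 4.84-fold apart. IGFBP6, which prefers IGF-II, had means of 1352 and 886 against 4093 and 2662. Its ratio was 2.84, and its nearest pair of 2.01-fold was just inside the limit.

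IGFBP7, a secreted IGF-binding-related protein of the senescence secretome, was listed at 12.8 in the HCT116 5/4 table, was not listed in the HCT116* 8/3 c7 table, and had means of 22052 and 20451 in the RPE1 pools. At 528 and 597 ppm per kb it stood above 99.6% of genes in both RPE1 tables. IGFBP4 had means of 449 and 144 in the RPE1 pools and was in no HCT116 table. In the HCT116 tables IGFBP6 was the highest of the 5 per kilobase, at 52.2 and 32.9 ppm per kb.

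**Figure D2:**
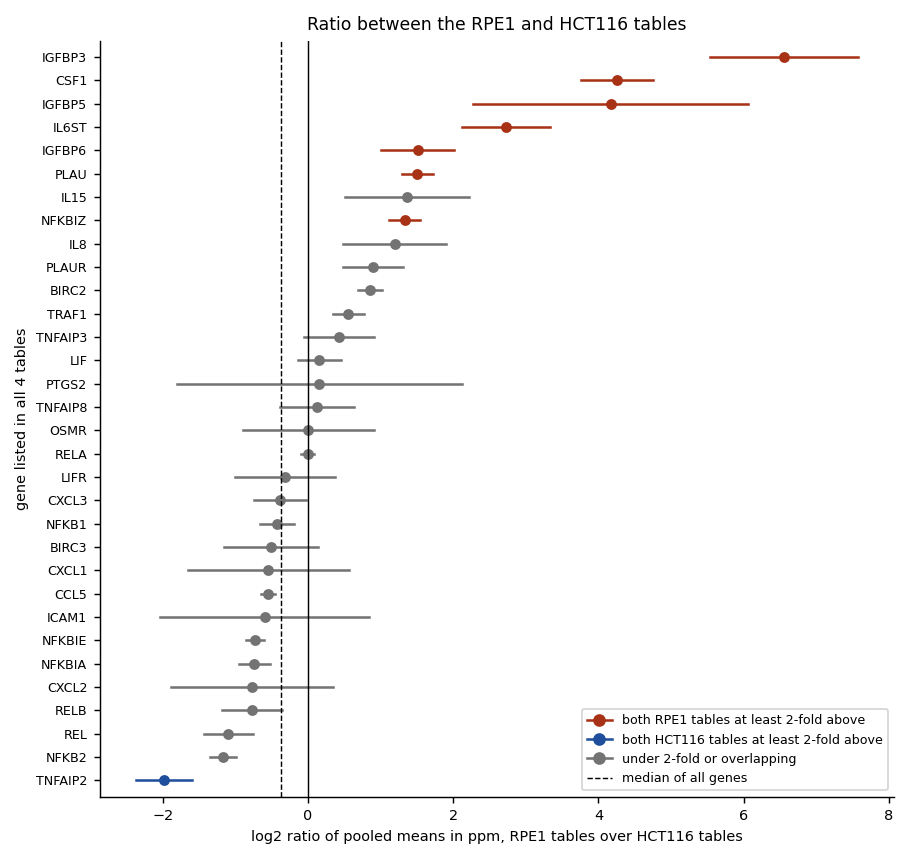
Points give the log2 ratio of the geometric means of the RPE1 and HCT116 tables for the 32 genes listed in all 4 tables, and lines run from the smallest to the largest ratio between single tables, which is a range over 4 pairs and not an error. IGFBP3 lies highest at 6.56 and TNFAIP2 lowest at −1.99, and the dashed line is the median of all genes at −0.37.

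The pools of 1 origin also differed in some of these genes. In the HCT116 tables, 7 of 33 genes (21.2%) differed by at least 2-fold, against 6.17% of all genes. ICAM1 (5.91-fold), IGFBP5 (4.38-fold), OSMR (2.38-fold) and IL15 (2.1-fold) were higher in the pool with HCT116 5/4. PTGS2 (2.78-fold), IL18 (2.43-fold) and CXCL2 (2.42-fold) were higher in the pool with HCT116* 8/3 c7. In the RPE1 tables, 8 of 41 genes (19.5%) differed by at least 2-fold, against 4.31% of all genes. PTGS2 (5.45-fold), CXCL1 (3.06-fold), IL8 (2.58-fold) and IGFBP4 (2.56-fold) were higher in the pool with RPE1 5/3 12/3. IGFBP3 (4.11-fold), IGFBP5 (3.16-fold), IL32 (3.13-fold) and SERPINB2 (2.6-fold) were higher in the pool with RPE1* 21/3. Some of these genes had low means, such as CXCL2 (6.91 and 17.4) in the HCT116 pools. CXCL1 (24.5 and 6.57) and IL32 (13.0 and 33.3) were low in the RPE1 pools. Others were high, such as OSMR (4699 and 2054) in HCT116 and IGFBP3 (3639 and 12263) in RPE1. The shares over all genes were not matched for level. PTGS2 and IGFBP5 differed in both origins. PTGS2 was higher in the pool without H2B-GFP in RPE1 and in the pool with it in HCT116, and IGFBP5 showed the reverse. The NF-kappaB subunits moved less, by at most 1.45-fold between the HCT116 pools (REL) and 1.41-fold between the RPE1 pools (RELB). The pools of an origin differ at once in the added chromosome, in H2B-GFP and, for HCT116, in the source of the cells, and these cannot be told apart.

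**Figure D3:**
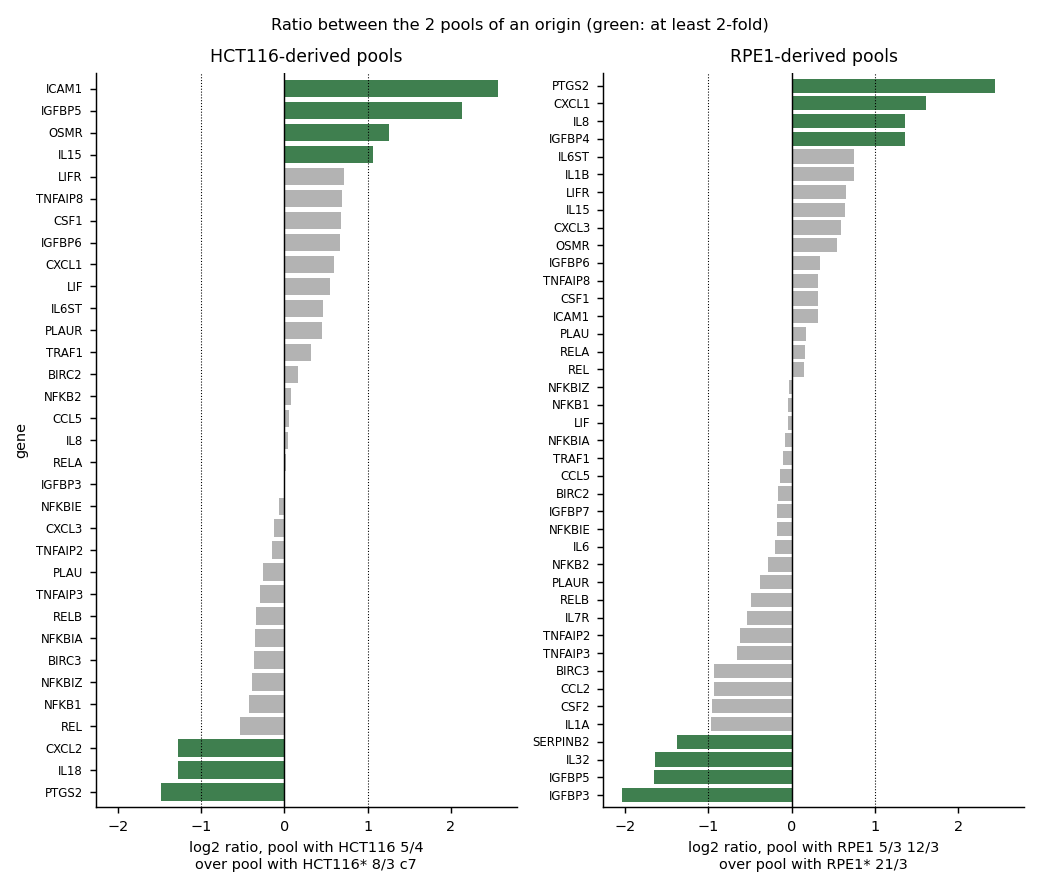
Bars give the log2 ratio of the mean in ppm between the 2 pools of an origin, HCT116 on the left and RPE1 on the right, for genes listed in both tables at a mean of at least 10 in 1 or more, with dotted lines at 2-fold. ICAM1 stands out at the top and PTGS2 at the bottom on the left, and PTGS2 at the top and IGFBP3 at the bottom on the right.

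Of the 48 genes, 6 are encoded on chromosome 5, 1 on chromosome 12, and none on chromosome 8 or 21. The receptor genes LIFR (chr5:38474770-38608456, minus strand, GRCh37) and OSMR (chr5:38845960-38945698, plus strand) are neighbours, and IL6ST (chr5:55230923-55290850, minus strand) and TNFAIP8 (chr5:118604387-118735383, plus strand) lie further along. The pool with HCT116 5/4 was set over that with HCT116* 8/3 c7, and the 586 chromosome 5 genes had a median log2 ratio of 0.46, against −0.02 for 12412 genes on chromosomes other than 5 and 8. The 4 chromosome 5 genes of the set listed there were all above 0, at 1.25 for OSMR, 0.72 for LIFR, 0.70 for TNFAIP8 and 0.47 for IL6ST, where 79.7% of all chromosome 5 genes were above 0. OSMR lay above 88.9% of chromosome 5 genes, and IL6ST above 50.3%. Chromosome 8 genes, which are gained in the other pool, had a median of −0.15.

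In the RPE1 pools, the 612 chromosome 5 genes had a median log2 ratio of 0.29 in the pool with RPE1 5/3 12/3 over that with RPE1* 21/3, against −0.03 for 11374 genes on chromosomes other than 5, 12 and 21. The 126 chromosome 21 genes, gained in the other pool, had a median of −0.41, with 6.35% above 0. IL6ST (0.75), LIFR (0.65), OSMR (0.55) and TNFAIP8 (0.32) lay above the chromosome median, and IL7R (−0.54) and CSF2 (−0.96) below 0. The 4 of 6 above 0 compare with 80.6% of all chromosome 5 genes. The CSF2 value rests on means of 7.27 and 11.6. IGFBP6 on chromosome 12 had a ratio of 0.34 where 683 chromosome 12 genes had a median of 0.29, but it was also 0.67 in the HCT116 pools, neither of which has a labelled gain of chromosome 12. LIFR, OSMR, IL6ST and TNFAIP8 thus had higher values in the pool with the chromosome 5 gain in both origins. That pool was also the one without H2B-GFP in both origins, so the gain and H2B-GFP cannot be told apart. Each pool mixes the aneuploid line with its parental line, so the ratio for the aneuploid line alone was not measured.

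**Figure D4:**
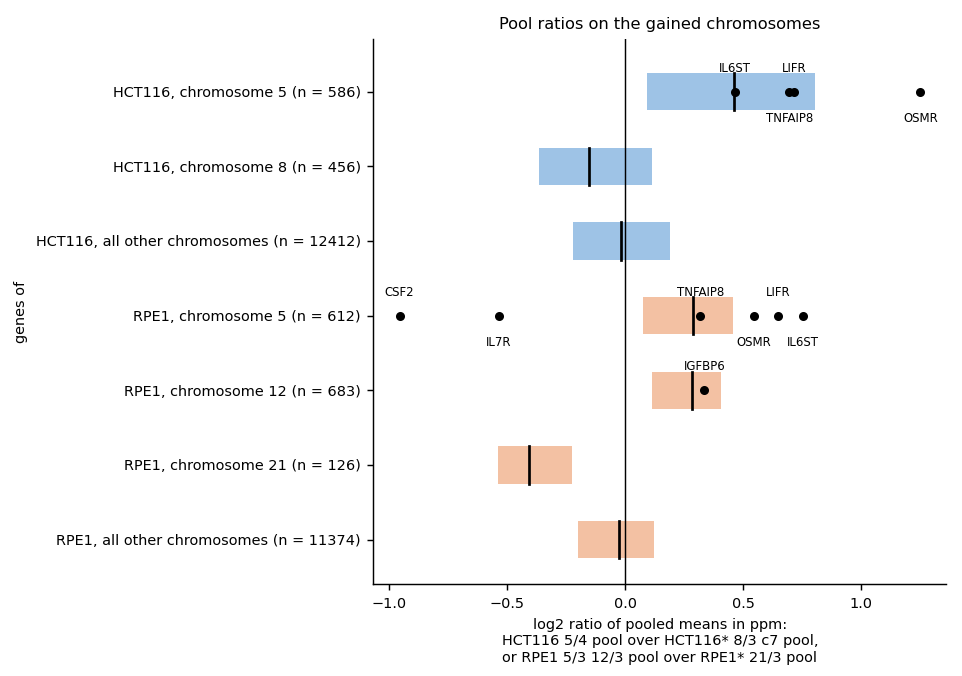
Bars span the quartiles, with the median as a black line, of the log2 ratio between the 2 pools of an origin for all genes on each gained chromosome and on all others, and points are the named genes. In HCT116 the 4 chromosome 5 genes lie between 0.47 and 1.25, and in RPE1 4 of 6 lie above 0, against 79.7% and 80.6% of all chromosome 5 genes above 0.

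A list of 40 further NF-kappaB pathway genes (receptors, adaptors, kinases and negative regulators) was read in the same way. All 40 were listed in at least 1 table and 35 were kept in all 4. Their median log2 ratio was 0.06 over the 36 with a ratio, against −0.37 over all genes. Of the 36, 6 were higher in the RPE1 tables, 4 in the HCT116 tables, and 26 were under 2-fold or overlapping, where 8.41% and 17.7% of all genes were higher in the RPE1 and HCT116 tables. Higher in RPE1 were the TNF receptor gene TNFRSF1B (19.2-fold), the IL-1 receptor accessory chain IL1RAP (6.26-fold), the deubiquitinase CYLD (4.15-fold), TNFRSF11A (3.36-fold), IKBKE (2.75-fold) and TNIP1 (2.47-fold). Higher in HCT116 were NFKBID (3.47-fold), NFKBIB (2.94-fold), MYD88 (2.52-fold) and RNF31 (2.24-fold). TLR4, the receptor of lipopolysaccharide, had means of 1753 and 1345 in the RPE1 pools and was in no HCT116 table. CD40 (484 and 489) and the IL-18 receptor chain IL18R1 (60.4 and 36.9) were listed in the HCT116 tables alone, where IL18 was also listed. The 3 core genes of the IkappaB kinase, CHUK, IKBKB and IKBKG, were listed in all tables and were not called.

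Of 40 further secretome genes and their receptors, 29 were listed in at least 1 table and 18 were kept in all 4. Higher in the RPE1 tables were 10 genes, and higher in the HCT116 tables were 4, with a median log2 ratio of 1.06 over the 21 genes compared, against 8.41% and 17.7% of all genes and an all-gene median of −0.37. The RPE1 set included the matrix protease MMP14 (24.5-fold), VEGFA (4.59-fold), the gp130 cytokine IL11 (6.06-fold) and the cell cycle inhibitor CDKN2A (4.18-fold). The HCT116 set was AREG (247-fold), GDF15 (999-fold), IGFBP2 (36.6-fold) and CXCL16 (13.5-fold). GDF15, a stress-induced TGF-beta family cytokine, had means of 4368 and 3453 in the HCT116 pools and 4.74 and 3.59 in the RPE1 pools, the latter near the lowest listed means. TNF, CXCL10, MMP1 and MMP3 were among the 11 genes of this list in no table.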

How the data were processed

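Total RNA of 24 libraries was made into TruSeq libraries and sequenced as 100-base single reads, 25000000 per library, per the labels. Per the methods and the submitters' notes, adapters were removed with cutadapt, reads were aligned to hg19 with TopHat2 (2.0.10) and counted with featureCounts (1.4.3), and the authors ran DESeq2 separately for the 4 pairs of an aneuploid and a parental line. The strand setting of the counting is not given in the sources used here. The deposited tables give, per gene, the authors' pooled mean of normalized counts over 6 libraries (a signal value with no replicates), and the authors' fold changes, standard errors, test statistics and p-values, which were not used. Values of single libraries were not analysed here. The count tests that had been planned could therefore not be run, and no p-value is given.

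Means were divided by their table sum (ppm), and by exon length (GENCODE 44, GRCh37 positions) to compare genes. Calls need 2-fold between both tables of each origin; the same call over all genes is the background. The calling rule was tested on simulated data with changes larger than the limit and counting noise only. That run does not show how calls behave where the pools of an origin differ. The 48 genes and the lists were chosen with earlier results of these data known. The text gives all 4 values for genes that reach 100 in any table, and others by range, call, gained chromosome or the highest of their group. Markers were colorectal, retinal pigment, fibroblast-like and blood cell genes. Alternatives were scaling, fold, minimum mean, the H2B-GFP subset and transcript length. Python 3.11.15, numpy 2.4.6, pandas 2.3.3 and matplotlib 3.10.9 were used.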

Additional observations from a re-analysis of the deposited data

How the results depend on the processing

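Of the 32 genes compared, 7 were higher in the RPE1 tables and 1 in the HCT116 tables (8.41% and 17.7% of all genes). With the means as deposited the counts were 6 and 2 (8.86% and 14.7% of all genes), since IGFBP6 fell just under the limit and NFKB2 passed it, and with the median of ratios 8 and 1 (11.7% and 11.6%), with BIRC2 added. A limit of 1.5-fold gave 8 and 4 genes (NFKB2, REL, NFKBIE and TNFAIP2 in HCT116), against 13.0% and 30.8% of all genes, and a limit of 4-fold gave 4 (CSF1, IL6ST, IGFBP3 and IGFBP5) and 0, against 3.83% and 6.0%. With the tables without H2B-GFP alone the counts were 11 and 3 of 32 (11.2% and 25.1% of all genes), and with those carrying it 11 and 4 of 33 (13.0% and 25.7%), where 1 table per origin makes the call easier to reach. A minimum mean of 50, with 29 genes compared, or no minimum, left 7 and 1. Between the HCT116 pools 12 genes passed at 1.5-fold (16.2% of all genes) and 2 at 4-fold (1.35%), in place of 7 (6.17%), and between the RPE1 pools 19 (11.4%) and 2 (0.905%), in place of 8 (4.31%). The log2 ratio of PTGS2 was 2.12 without and −1.81 with H2B-GFP, so its value of 0.16 over all tables is not a stable direction. ICAM1 also changed sign, from −1.72 without to 0.53 with H2B-GFP. RELA, TNFAIP8, LIF and OSMR changed sign over smaller ranges, and none of these genes was called over all tables. The ratios of the 8 called genes kept their sign under every alternative run. The genes leading the subunits, receptors and IGF binding proteins per kilobase were the same with the longest transcript.

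No paired analysis was possible because the tables hold 1 pooled mean per gene. For the same reason leaving out a library, and a second count model, were not run. Pooled means limit what depth can show: no spread between libraries can be given.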
